A study of Rattus norvegicus with 30 samples.

Results

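The metabotropic glutamate receptors analysed here were *Grm2*, *Grm4*, *Grm5* and *Grm7*, taken as every probe that the array's annotation names for these 4 genes. Each gene had 1 probe, so the members were 4 of the 13337 genes named on the array and 4 of its 22523 probes. They were measured in the hippocampus of adult Sprague Dawley rats, with 1 rat per array and values for 29 of 30 labelled rats. The design crossed sex with 3 conditions, which gave 6 groups. Controls met no predator scent but went through the behavioural tests, while the other rats of each sex met the scent and showed either a minimal or an extreme behavioural response. There were 5 rats in each group except male minimal responders, of which 4 had values. All rats were of 1 strain with no genetic alteration in the labels, and the response groups were defined by behaviour and not assigned. Values are array intensities on a log2 scale, on which a difference of 1 is a 2-fold difference.

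Metabotropic glutamate receptors are G protein-coupled receptors that adjust synaptic transmission more slowly than the ion channel receptors for glutamate. Group I, to which *Grm5* belongs, couples through Gq to phospholipase C and calcium release and lies mostly at the edge of the postsynaptic density, where it can trigger long-term depression. Group II, which holds *Grm2*, and group III, which holds *Grm4* and *Grm7*, couple through Gi/o to lower cyclic AMP and lie mostly on presynaptic terminals, where they restrain glutamate release. In the hippocampus *Grm2* is known from the granule cells and their mossy fibres, *Grm5* from pyramidal cells and astrocytes, and *Grm7* from the active zones of many terminals.

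No receptor changed past the threshold in any of the 15 comparisons. *Grm5* was lowest in female minimal responders and *Grm2* lowest in male minimal responders, and neither difference survived the correction over all probes. With limma and a Benjamini-Hochberg adjusted p under 0.05, 0 of the 4 probes passed in each comparison, and 6 of the 60 tests of a receptor in a comparison had an unadjusted p under 0.05, which is 10% where all probes gave 12.6%. Of all 11888 probes tested, the share that passed in females was 0% between minimal responders and controls, 1% between extreme responders and controls, and 3.79% between extreme and minimal responders. In males these shares were 0%, 0.622% and 0.0757%. At such shares a count of 0 of 4 does not set the receptors apart from other probes.

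The tissue and the arrays were checked first. Of 10 dentate granule cell markers, 7 had a probe and 5 were above background on at least 5 arrays, and of 10 pyramidal cell markers 9 were, among them *Calb1* (mean 10.99), *C1ql2* (9.30), *Wfs1* (9.57) and *Cpne4* (9.64). Markers of neighbouring tissue varied between rats of the same group. The mean of 7 choroid plexus markers ran from 7.52 to 10.97 and was above 10 in 4 rats (1 control, 1 minimal and 1 extreme female, with replicate numbers 2, 3 and 5, and male minimal 2). The mean of 4 thalamus markers ran from 7.54 to 9.31. Over the 29 arrays the correlation of a receptor with the choroid plexus mean lay between −0.32 for *Grm7* and 0.07 for *Grm4*, and with the thalamus mean between −0.20 for *Grm5* and 0.21 for *Grm4*. Of 83 genes on 12 marker lists, the oligodendrocyte markers *Cnp* and *Olig1* and the endothelial *Tie1* rose between female minimal and extreme responders and 0 fell, and *Adora2a*, a striatum marker, fell between female controls and extreme responders. Between male controls and extreme responders the granule cell markers *C1ql2* (−0.84, adjusted p = 0.0467) and *Pdyn* (−0.77, 0.0359) fell, where 0.622% of all probes passed. With males fitted alone, 0 probes passed in that comparison, against 74 in the fit of both sexes. Over both sexes, 6 of the 83 marker genes rose and 1 fell between minimal and extreme responders, and 4 rose and 4 fell between controls and extreme responders, the latter *C1ql2*, *Pdyn*, *Trem2* and *Adora2a*. Of all probes, 7.95% and 4.94% passed in these comparisons over both sexes. In females, 3.79% of all probes passed between minimal and extreme responders and 1% between controls and extreme responders. The part of these cell types in the results was not tested. In such bulk tissue, fewer cells of a type and less RNA per cell cannot be told apart.

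The arrays also fell into 2 sets that are not in the labels, recognised from 8 probes with widely separated values. Set A held 12 rats, 3 in each of the control and minimal groups, and set B held 17, among them all 10 extreme responders. Set and response are thus entangled in any comparison that involves extreme responders, and values with the set as a block are given beside those for *Grm2*, *Grm5* and *Grm7* that it moved by over 1.5 times or turned in sign. The calls of cell type markers above are without the block. In a fit with group and set together, the difference of set A from set B was −0.22 ± 0.09 (SE) for *Grm7* (adjusted p = 0.0908), −0.16 ± 0.11 for *Grm2* (0.327), −0.09 ± 0.07 for *Grm5* (0.404) and −0.05 ± 0.06 for *Grm4* (0.647), so 0 of 4 passed where 18.9% of all probes did. Male extreme 4 stood apart from the other arrays, with a median correlation of 0.964 to them against at least 0.977 for every other array.

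*Grm5* (probe ILMN_1361607), the group I receptor, had a mean of 7.37 over all rats and lay above the background limit of 7.03 on 28 of 29 arrays. In female controls its log2 values were 7.61, 7.37, 7.51, 7.41 and 7.26. In female minimal responders they were 7.32, 7.22, 7.28, 7.36 and 6.86, and in female extreme responders 7.50, 7.64, 7.59, 7.30 and 7.37. The lowest extreme female (7.30) lay below the highest minimal female (7.36), so the groups overlapped, although the other 4 extreme females lay above every minimal female. In male controls the values were 7.54, 7.25, 7.41, 7.35 and 7.30. In male minimal responders they were 7.39, 7.25, 7.43 and 7.56, and in male extreme responders 7.19, 7.57, 7.31, 7.31 and 7.15. The 3 male groups overlapped over most of their range.

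The group means of *Grm5*, from highest to lowest, were 7.48 ± 0.14 (SD, n = 5) in female extreme responders, 7.43 ± 0.13 in female controls, 7.41 ± 0.13 (n = 4) in male minimal responders, 7.37 ± 0.12 in male controls, 7.31 ± 0.17 in male extreme responders and 7.21 ± 0.20 in female minimal responders. Each neighbour in that order differed by less than the SD within groups of 0.15. Between female extreme and minimal responders the difference was 0.27 ± 0.10 on the log2 scale, a 1.21-fold higher intensity with a 95% interval from 1.05 to 1.38. Its unadjusted p was 0.00817, which ranked 903rd of 11888 probes, and its adjusted p of 0.107 missed the threshold. Female minimal responders differed from controls by −0.22 ± 0.10 (adjusted p = 0.383), a comparison that shares the minimal responders with the one before. Female minimal 5 set much of both values. Without it they were 0.18 (adjusted p = 0.325) and −0.14 (0.731). With the set as a block the value between extreme and minimal females was 0.22 (0.259).

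In males the difference of *Grm5* between extreme and minimal responders was −0.11 ± 0.10, or −0.18 with the set as a block, opposite in sign to the females. Extreme responders against controls were at 0.05 ± 0.10 in females and −0.07 ± 0.10 in males, and at −0.01 and −0.12 with the block. The sex difference between extreme and minimal responders, male minus female, was −0.38 ± 0.14 with a 95% interval from −0.66 to −0.09 and an unadjusted p of 0.0113. After adjustment its p was 0.481, and 0% of all probes passed in that interaction.

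*Grm2* (ILMN_1356100), the group II receptor, had the highest mean value of the 4 probes, at 8.59, and lay above background on all 29 arrays, although intensities of different probes do not rank transcript levels. Its values were 8.55, 8.40, 8.19, 8.62 and 8.60 in female controls, 8.89, 9.01, 8.39, 8.57 and 8.14 in female minimal responders, and 8.58, 8.60, 8.70, 8.51 and 9.05 in female extreme responders. The minimal females had the widest spread of the 3 groups, and all 3 overlapped. In males the values were 8.70, 8.58, 8.70, 8.45 and 8.89 in controls, 8.51, 8.08, 8.38 and 8.38 in minimal responders, and 8.85, 8.88, 8.64, 8.91 and 8.25 in extreme responders. All extreme males but male extreme 5 lay above every minimal male, and 1 minimal male (8.51) lay above the lowest control (8.45).

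The means of *Grm2* were 8.71 ± 0.28 in male extreme responders, 8.69 ± 0.22 in female extreme responders, 8.67 ± 0.16 in male controls, 8.60 ± 0.36 in female minimal responders, 8.47 ± 0.18 in female controls and 8.34 ± 0.19 (n = 4) in male minimal responders. Neighbours in this order differed by at most 0.13, less than the SD within groups of 0.24. Among males, extreme responders were at 0.37 ± 0.15 against minimal responders, 1.29-fold with an interval from 1.04 to 1.60 (unadjusted p = 0.0223, adjusted p = 0.25). Minimal responders were at −0.33 ± 0.15 against controls (unadjusted p = 0.0401, adjusted p = 0.998), and extreme responders at 0.04 ± 0.14. In females extreme responders were at 0.09 ± 0.14 against minimal responders and 0.22 ± 0.14 against controls (adjusted p = 0.557). With the set as a block the values of extreme responders against minimal responders were 0.25 in males and −0.01 in females, and against controls −0.05 in males and 0.12 in females. The sex difference between extreme and minimal responders was 0.28 ± 0.21 (adjusted p = 0.795). Averaged over the sexes, extreme responders were at 0.23 ± 0.10 against minimal responders (adjusted p = 0.177), in a comparison in which 7.95% of all probes passed. That value was 0.12 with the set as a block and 0.11 without the 4 rats with high choroid plexus markers. The part of the sets and of these markers in it was not tested further.

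**Figure D1:**
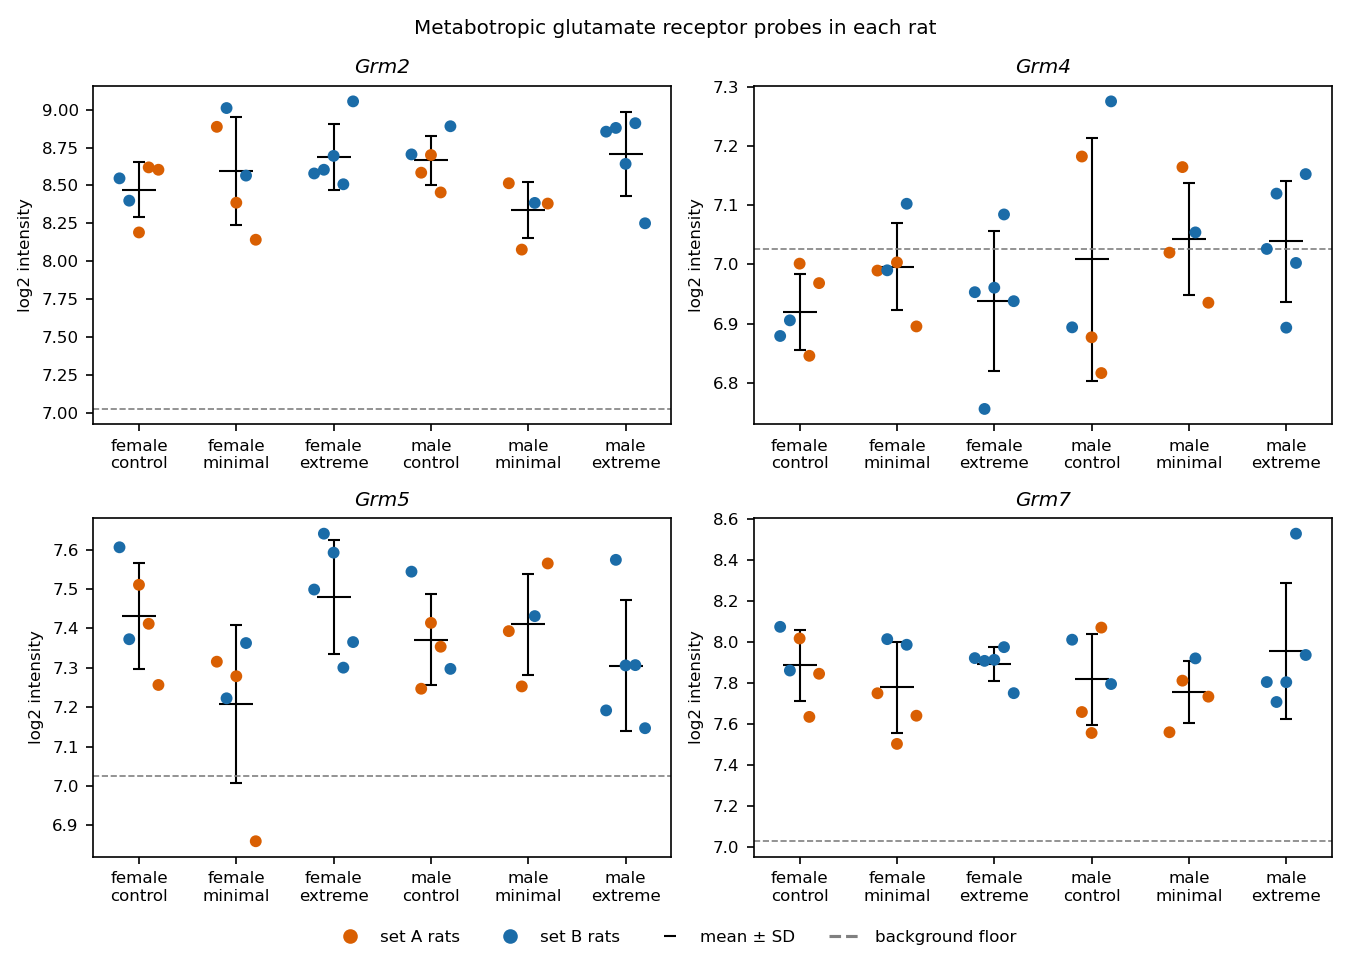
Log2 intensity (vertical axes) of the 4 receptor probes in each rat, by group (horizontal axes), with the group mean ± SD in black, the background limit of 7.03 dashed and the 2 sets of arrays in orange (A) and blue (B). *Grm5* was lowest in female minimal 5 (6.86), *Grm7* highest in male extreme 4 (8.53), and *Grm4* lay around the background limit in every group.

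*Grm7* (ILMN_1376436), the group III receptor of active zones, had a mean of 7.85 and lay above background on all 29 arrays. Its values in male extreme responders were 7.80, 7.71, 7.80, 8.53 and 7.93, of which 8.53 belonged to male extreme 4, the array that stood apart. The other groups ran from 7.56 to 7.92 in male minimal responders, from 7.55 to 8.07 in male controls, from 7.63 to 8.07 in female controls, from 7.50 to 8.01 in female minimal responders and from 7.75 to 7.97 in female extreme responders. All 6 ranges overlapped. Female extreme responders had the smallest spread, at 7.89 ± 0.08, within the range of the female controls (7.88 ± 0.17).

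Group means of *Grm7* lay between 7.75 in male minimal and 7.95 in male extreme responders, and neighbours in their order differed by at most 0.07 against an SD within groups of 0.21. The difference between male extreme and minimal responders was 0.20 ± 0.14 (adjusted p = 0.509), and it was 0.06 without male extreme 4. Against controls it was 0.14 ± 0.13 (0.624), and −0.01 without that rat. Blocked by set, these were 0.04 (0.951) and 0.01 (0.985). In females the difference of extreme from minimal responders was 0.11 ± 0.13 (0.689), and that of extreme responders from controls was 0.01 ± 0.13 (0.992). With the block these were −0.01 (0.97) and −0.12 (0.727), so that the sign turned in both. Averaged over the sexes, extreme responders were at 0.16 ± 0.09 against minimal responders (0.311), and at 0.01 (0.969) with the block.

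*Grm4* (ILMN_1349372), the other group III receptor, was close to background. It had a mean of 6.99 and exceeded the limit on 9 of 29 arrays, spread over 0 of 5 female controls, 1 of 5 in each exposed female group, 2 of 5 male controls, 2 of 4 male minimal and 3 of 5 male extreme responders. It entered the fit because 5 such arrays sufficed, in whichever groups. Its means lay between 6.92 ± 0.06 in female controls and 7.04 ± 0.09 (n = 4) in male minimal responders. No fold against female controls is given, since no array of that group was above background and the means of the groups set against it lay under the limit as well, at most at 7.01 ± 0.21 in male controls. Male extreme and minimal responders had means of 7.04 ± 0.10 and 7.04 ± 0.09 (SE of the difference 0.08, adjusted p = 0.986), and female extreme responders were at −0.06 ± 0.08 against minimal responders (0.756), both with means under the limit and 1 of 5 arrays above it.

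Of the other receptors of the family, *Grm6*, which is known from retinal bipolar cells, and *Grm8*, a further group III receptor, each had 1 probe that did not reach the filter. *Grm8* lay between 6.44 and 6.90 and above background on 0 arrays. *Grm6* lay between 6.70 and 7.45 and above background on 3 arrays, 2 of them female extreme responders (7.45 and 7.03) and 1 a male extreme responder (7.07).

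**Figure D2:**
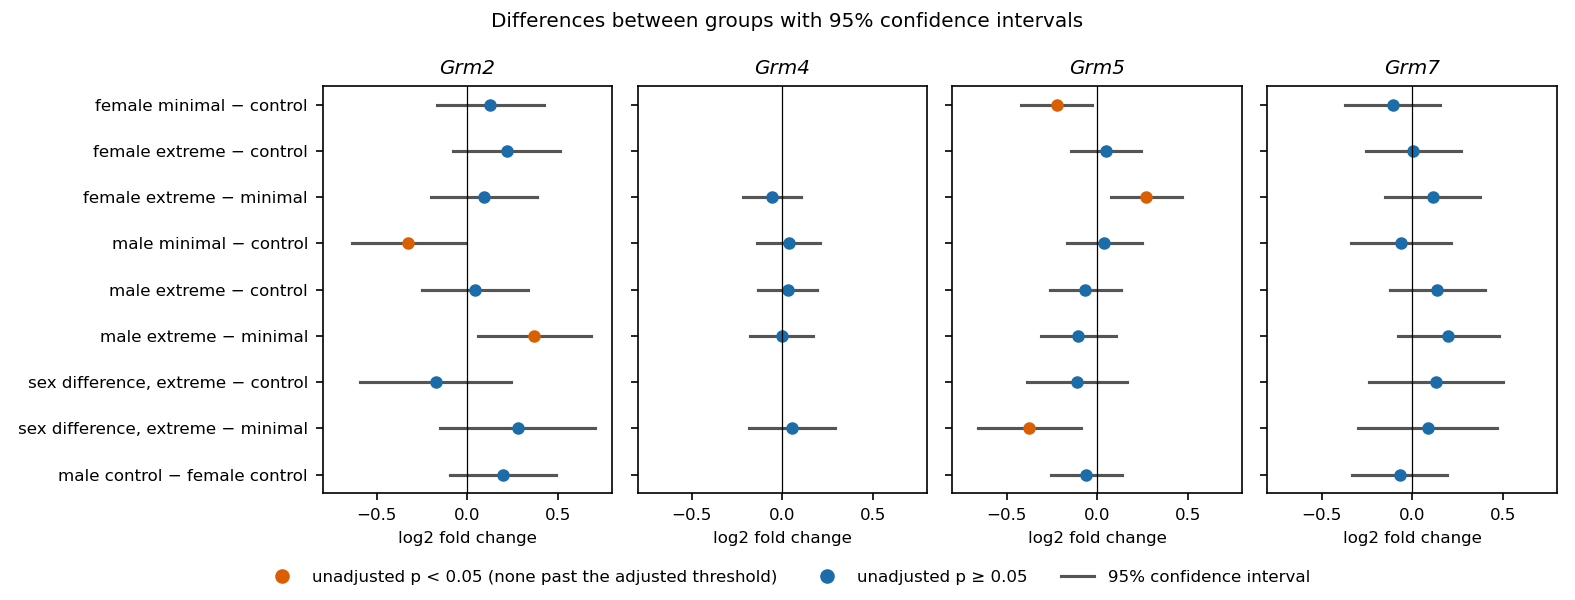
Log2 fold change (horizontal axis) of each receptor in 9 comparisons (rows), with 95% confidence intervals as bars and points in orange where the unadjusted p was under 0.05. The intervals that leave out 0 belong to *Grm5* and *Grm2* in comparisons with minimal responders, none passed after adjustment, and *Grm4* is not drawn against female controls, which were at background.

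The intervals show which differences of intensity these values allow, 1 comparison at a time and without the set as a block. The background correction is not given, so the intervals do not bound changes of the transcripts. Over the 6 comparisons of groups within a sex, the 95% intervals reached from 0.642-fold to 1.60-fold for *Grm2*, from 0.748-fold to 1.38-fold for *Grm5* and from 0.774-fold to 1.39-fold for *Grm7*. The widest bounds all lay in comparisons with minimal responders. Exposure as a whole, the mean of both response groups against controls, was at 0.17 ± 0.12 for *Grm2*, −0.09 ± 0.08 for *Grm5* and −0.05 ± 0.11 for *Grm7* in females, where 0.00841% of probes passed. In males it was at −0.14 ± 0.13, −0.01 ± 0.08 and 0.04 ± 0.11, where 0% passed. Blocked by set, exposure was at −0.11 for *Grm7* in females, and at −0.03 for *Grm5* and −0.01 for *Grm7* in males. The sex difference in the exposure effect of *Grm2*, −0.31 ± 0.18, had an adjusted p of 0.597, and 0% of probes passed there. Over both sexes, exposure was at 0.01 ± 0.09 for *Grm2*, −0.05 ± 0.06 for *Grm5* and −0.01 ± 0.08 for *Grm7* (0.109% of probes passed), and extreme responders against controls at 0.13 ± 0.10, −0.01 ± 0.07 and 0.07 ± 0.09 (4.94%). Blocked by set, exposure was at −0.03, −0.08 and −0.06, and extreme responders against controls at 0.03, −0.06 and −0.06, in the same order of genes. The sex difference between extreme responders and controls ran from −0.18 ± 0.20 for *Grm2* to 0.13 ± 0.18 for *Grm7* (0.0168%).

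Among controls, males and females did not differ past the threshold at any receptor, and 0% of all probes passed. The difference, male minus female, was 0.19 ± 0.14 for *Grm2*, −0.06 ± 0.10 for *Grm5* and −0.07 ± 0.13 for *Grm7*. The labels give no slide or scan for the arrays, so sex and such a batch cannot be told apart.

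The receptors were only weakly correlated with each other from rat to rat. Over the 29 arrays the Pearson correlations between members ran from −0.30 (*Grm4* with *Grm5*) to 0.18 (*Grm2* with *Grm5*), and that of *Grm5* with *Grm7* was 0.16. Correlations here describe arrays that share group, set and tissue makeup. *Grm7* had the closest companions. Of 8544 other probes with a symbol, those most like it were *Enpp5* (r = 0.87), *Mapk9*, the kinase JNK2 (0.83), and *Ube2j1*, a ubiquitin-conjugating enzyme of the endoplasmic reticulum (0.83), and the most opposed was *Rps12* of the small ribosomal subunit (−0.84). Without the 2 rats farthest from its median, male extreme 4 and female minimal 3, the value for *Enpp5* was 0.79 and that for *Rps12* −0.72. Within set A the value for *Enpp5* was 0.71 and within set B 0.90.

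*Grm5* was most like *Grip1* (r = 0.67), a scaffold with PDZ domains that binds AMPA receptors, *Diaph3* (0.66) and *Zfp263* (0.65), and most opposed to *Or2c1* (−0.70). Without female minimal 5 and female extreme 2 the correlation with *Grip1* was 0.53, that with *Zfp263* 0.38 and that with *Or2c1* −0.48. Within set A the correlation with *Grip1* was 0.48 and within set B 0.84. *Grip1* was on the list of receptor partners. Between extreme and minimal females its own difference was 0.26 ± 0.09 (adjusted p = 0.116). These genes were picked as the extremes of 8544 correlations, and a link between them and *Grm5* was not tested. *Grm2* was most like *Jup*, the junction protein plakoglobin (0.70), *Tut1* (0.64) and *Cxxc1* (0.62) and most opposed to *Lum*, the matrix protein lumican (−0.66). Within sets A and B the values were 0.64 and 0.62 for *Jup* and 0.74 and 0.42 for *Tut1*. For *Cxxc1* they were 0.23 and 0.64, and for *Lum* −0.79 and −0.37. *Grm4*, near background, reached at most 0.58 (*Evc2*), then *Slc31a2* (0.58) and *Col3a1* (0.56), and −0.63 with *Bloc1s4*. Without male control 5 and female extreme 2 the value for *Evc2* was 0.47 and that for *Bloc1s4* −0.50.

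**Figure D3:**
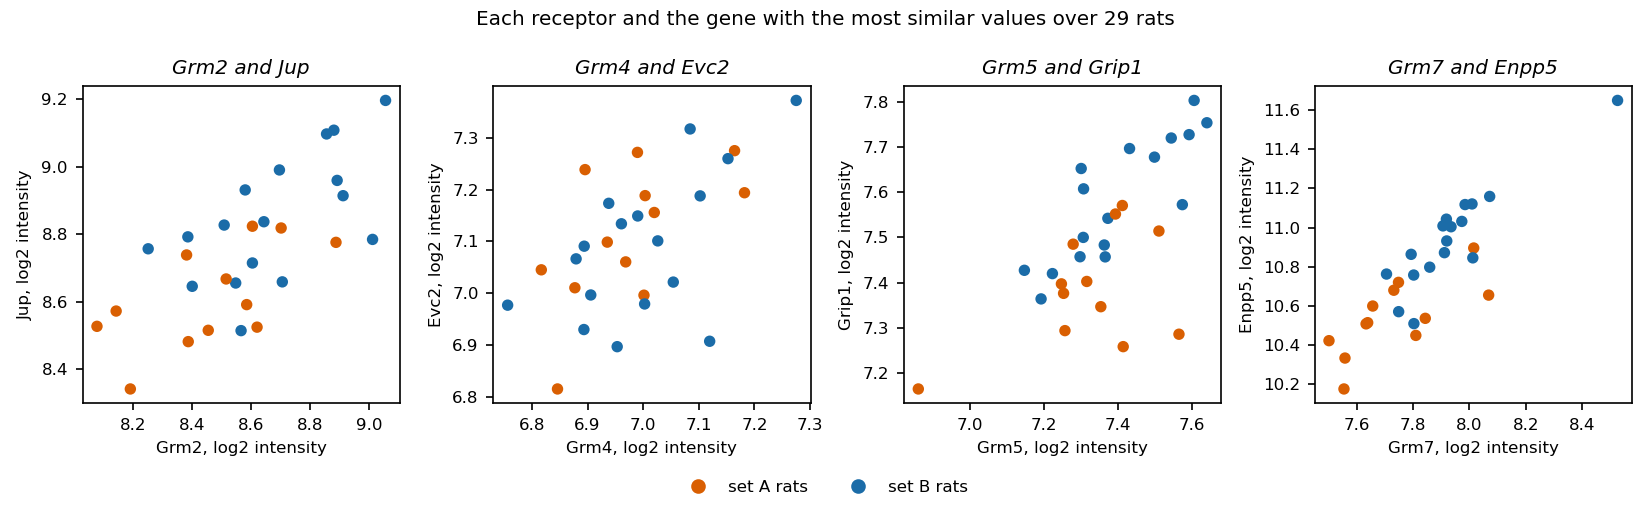
Log2 intensity of each receptor (horizontal axes) against that of the gene with the most similar values (vertical axes) over 29 rats, coloured by set. *Grm7* and *Enpp5* follow each other most closely (r = 0.87), with male extreme 4 at the far right, while *Grm4* spans a narrow range near background.

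The proteins around these receptors were described through 6 lists, of which 76 genes were above background on at least 5 arrays. Between female extreme responders and controls 2 of the 76 rose and 0 fell, between female extreme and minimal responders 1 rose and 1 fell (2.63% in each), and between male extreme responders and controls 1 rose (1.32%). Of all probes, 1%, 3.79% and 0.622% passed in these comparisons, in that order. Minimal responders against controls, in either sex (0% of all probes), and male extreme against minimal responders (0.0757%) had 0 of 76 past the threshold. The median log2 difference of the 76 was 0.03, 0.05 and 0.05 in the first 3 of these comparisons, against −0.01, 0.00 and −0.01 over all probes.

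Among genes of receptor-dependent synaptic plasticity, *Ptpn5* encodes STEP, a tyrosine phosphatase that acts in the removal of AMPA receptors after *Grm5* activation. Its values were 9.29 to 9.42 in female controls, 9.24 to 9.77 in female minimal responders and 9.73 to 10.08 in female extreme responders. Every extreme female lay above every control. *Ptpn5* rose by 0.50 ± 0.10 between female extreme responders and controls (adjusted p = 0.00712), a call kept in 29 of 29 fits that left out 1 rat and with the set as a block (0.42, 0.0325), but not within set B alone (0.49, 0.0756), where 2 female controls remained. Between female extreme and minimal responders it rose by 0.35 ± 0.10 (0.0401). That call ended with the set as a block (0.27, 0.142), within set B (0.29, 0.262) and without the rats with high choroid plexus markers (0.22, 0.214). It also ended without the background filter, with the replicate number as a block, and without female minimal 3, 4 or 5 or female extreme 2, 3, 4 or 5. In males *Ptpn5* had means of 9.59 ± 0.09 in controls, 9.54 ± 0.29 (n = 4) in minimal and 9.91 ± 0.06 in extreme responders. Over both sexes it rose by 0.41 ± 0.07 against controls (0.00128), a call kept with the set as a block (0.33, 0.0202) and ended within set B (0.39, 0.0533). Its rise of 0.36 ± 0.07 against minimal responders of both sexes (0.00318) ended with the set as a block (0.27, 0.0771). *Arc*, whose protein drives endocytosis of AMPA receptors, ran from 8.42 to 8.57 in female controls and from 9.36 to 9.86 in female extreme responders, with no overlap. Female minimal responders, from 8.82 to 9.77, also lay above every control (0.78 ± 0.24, adjusted p = 0.268). *Arc* rose by 1.21 ± 0.24 in extreme females against controls (0.0107), kept with the set as a block (1.33, 0.00907) and not within set B (1.19, 0.251). In males extreme responders ran from 8.20 to 10.40 and were at 0.36 ± 0.24 against controls (0.47). Between female extreme responders and controls, *Ptpn5* and *Arc* were the 2 of 13 genes of the list that rose. The median of the list in that comparison of females was −0.02, and 0 fell. Within set B, with 2 controls of each sex left, 2 of 11888 probes passed between female extreme responders and controls, against 119 in the main fit. Between female extreme and minimal responders, and over both sexes against controls, 0 passed there. A call that ended within set B thus says little about a single gene.

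Of 16 genes of the Gi/o pathway, *Gnai2*, a G protein alpha subunit that inhibits adenylyl cyclase, fell by 0.26 on the log2 scale between female minimal and extreme responders (SE 0.07, adjusted p = 0.0294), from 12.48 ± 0.07 to 12.22 ± 0.12. All extreme females lay below all minimal females. The call ended with the set as a block (−0.24, adjusted p = 0.0779) and without the rats with high choroid plexus markers (−0.28, 0.0857). Within set B, where 0 of all probes passed, the call ended as well (−0.25, 0.344). It also ended with each sex fitted alone, with a variance trend and robust prior, and without female minimal 3, 4 or 5 or female extreme 1. *Kcnj11* rose by 0.38 ± 0.08 between male extreme responders and controls (0.0286), from 7.48 ± 0.13 to 7.85 ± 0.10, with every extreme male above every control. Its product is the pore of potassium channels gated by ATP, not by G proteins. That call was kept with the set as a block (0.44, 0.0181). It ended within set B (0.46, 0.301) and with each sex fitted alone, fits in which 0 of all probes passed against 74 in the main fit. Array weights ended the call too. It also ended without male control 3, 4 or 5 or male extreme 2 or 4 (adjusted p up to 0.0912).

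**Figure D4:**
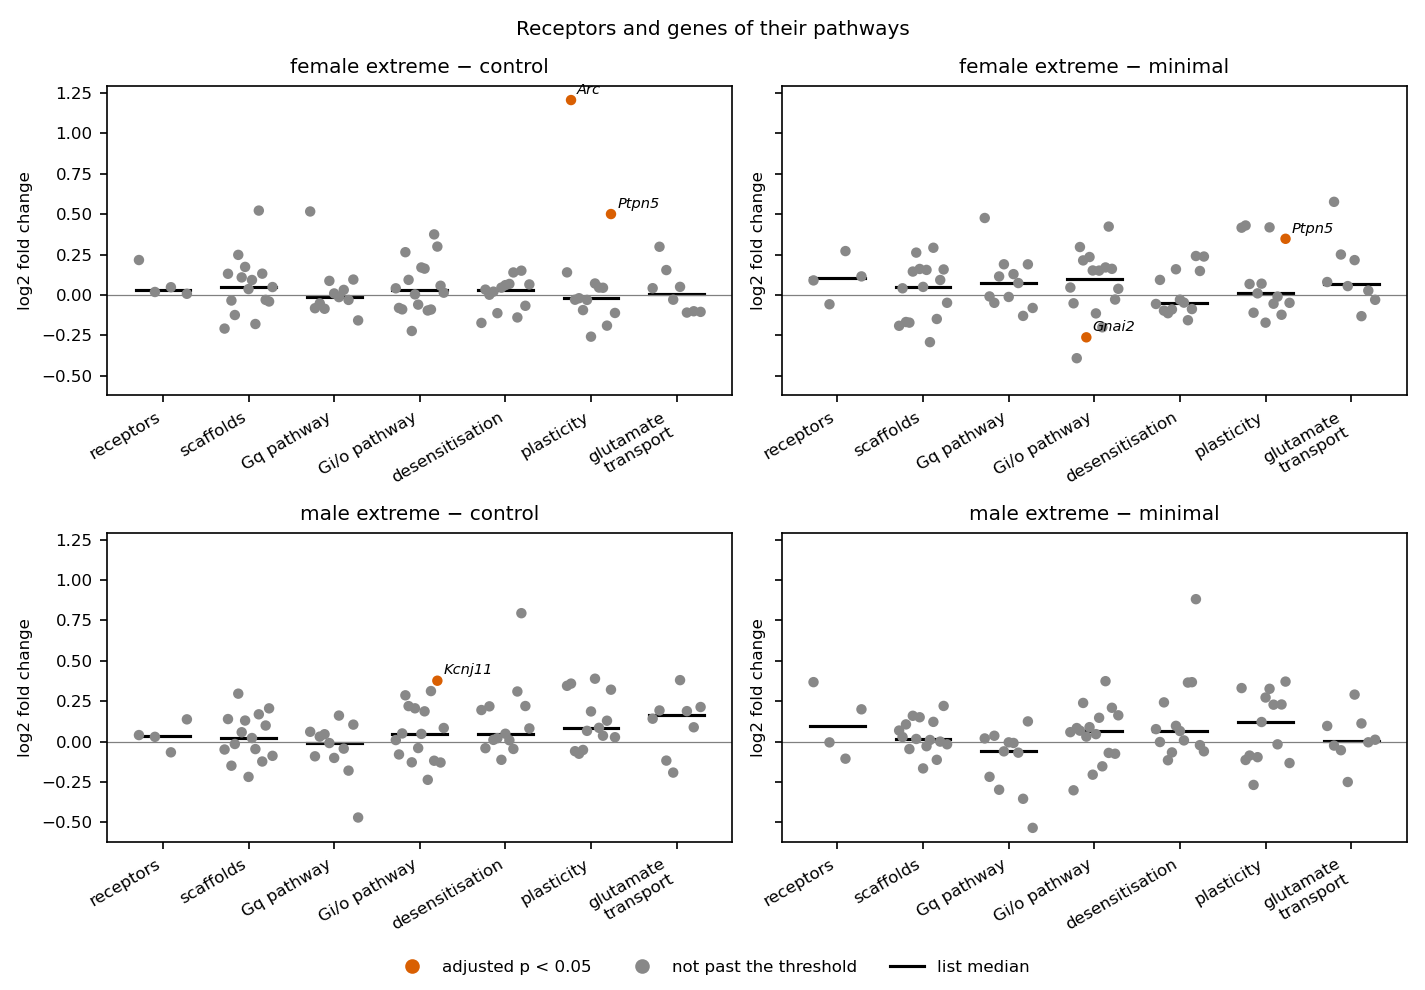
Log2 fold change (vertical axes) of the 4 receptors and of the 76 genes on 6 lists of their partners (horizontal axes) in 4 comparisons, with list medians as black lines and genes past the threshold in orange. *Arc*, *Ptpn5*, *Gnai2* and *Kcnj11* are the genes past the threshold in these panels, and the receptors lie between −0.11 and 0.37.

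Averaging the sexes added calls among the partners, 6 of 76 in each of the comparisons of extreme responders with controls and with minimal responders (7.89%, against 4.94% and 7.95% of all probes). Of 15 scaffold and trafficking partners, *Dlgap3*, which joins PSD-95 to Shank proteins, rose by 0.27 ± 0.07 (adjusted p = 0.0263) and *Ppp1r9b*, spinophilin of dendritic spines, rose by 0.35 ± 0.10 (0.041) against controls, and 0 fell. With the set as a block these were 0.15 (0.271) and 0.14 (0.446). Without 1 rat at a time the call was kept for *Dlgap3* in 25 of 29 fits and for *Ppp1r9b* in 16. *Arc* rose by 0.78 ± 0.17 (0.00904) and *Kcnj11* by 0.34 ± 0.06 (0.00128) against controls, both kept with the set as a block (0.90 and 0.40) and ended within set B (0.87 with adjusted p = 0.155, and 0.42 with 0.0534). *Gnai2* fell by 0.18 (0.0365), a call that ended with the block (−0.15, 0.157) and within set B (−0.13, 0.48). Within set B 0 of all probes passed between extreme responders and controls of both sexes, against 587 in the main fit. *Kcnj11* also rose by 0.19 ± 0.06 against minimal responders (0.0453) and by 0.25 ± 0.05 with exposure as a whole (0.0412), calls kept in 11 and 7 of the 29 fits. Of 11 genes of the Gq pathway, only *Prkca*, protein kinase C alpha, passed in any comparison. It fell by 0.24 between minimal and extreme responders (adjusted p = 0.042), and with the set as a block it was at −0.14 (0.39).

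Between extreme and minimal responders of both sexes, *Gnai1*, a further inhibitory alpha subunit, passed the test (adjusted p = 0.0182) but was above background on 0 of 9 arrays of minimal and 5 of 10 of extreme responders. Those 5 arrays were enough on their own to meet the background filter. Its measured means were 6.83 in minimal and 7.06 in extreme responders, against a background limit of 7.03. The higher mean lay above the limit by less than the SE of the difference (0.06), so no fold is given for *Gnai1*. Its highest value in male extreme responders, 7.43, was on the array that stood apart from the others. *Slc1a2*, the main glutamate transporter of astrocytes, rose by 0.25 ± 0.08 (0.0401), the only one of 8 genes of glutamate transport and supply to pass. It is also on the list of astrocyte markers, of which *Aldoc* rose too (0.23, adjusted p = 0.0291) and 7 of 8 were higher, and 9 of 9 oligodendrocyte markers were higher, among which *Cnp*, *Olig1* and *Cldn11* rose. The median difference was 0.12 for the astrocyte list and 0.31 for the oligodendrocyte list, against −0.004 over all probes. Apart from *Slc1a2*, these marker calls are without the set as a block, which cut the calls among all probes from 945 to 244. The mean level of the 8 astrocyte markers ran from 11.43 to 11.70 in minimal and from 11.49 to 11.83 in extreme responders, and that of the 9 oligodendrocyte markers from 9.73 to 10.55 and from 10.15 to 10.73. *App*, the amyloid precursor, rose by 0.37 ± 0.11 (0.0412). With the set as a block the calls of *Gnai1* (adjusted p = 0.12), *Slc1a2* (0.16, 0.35) and *App* (0.08, 0.72) ended. Without 1 rat at a time the call of *Gnai1* was kept in 29 of 29 fits, that of *Slc1a2* in 17, of *App* in 19 and of *Prkca* in 18. Without the rats with high choroid plexus markers the calls of *Slc1a2* (0.0809), *App* (0.121), *Prkca* (0.0667), *Ppp1r9b* (0.0681), *Gnai2* (0.063) and *Kcnj11* (0.0812 for exposure and 0.158 for extreme against minimal responders) over both sexes ended, with adjusted p in brackets. Of 13 genes of receptor desensitisation 0 passed in any comparison. Those with the smallest p between female extreme and minimal responders were *Rgs8* (0.24 ± 0.11, adjusted p = 0.239), *Grk5* (0.16 ± 0.10, 0.426), *Arrb2* (0.09 ± 0.06, 0.463) and *Grk3* (−0.11 ± 0.08, 0.502).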

How the data were processed

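Illumina expression arrays were hybridised with biotin-labelled cRNA from total RNA, per the labels' protocols. The values are log2 intensities deposited by the authors, read as such from their range (6.31 to 15.00). Their sorted columns agreed within 0.00119, so they had been quantile normalised. The sources used here do not give the software or the background correction. A table of raw signals has 60 columns whose names match no label and was not used, so its re-normalisation was not run. A probe was kept when it exceeded 7.03, the background mode of 6.7 plus 3 SD (0.109), on at least 5 arrays, which kept 11888 of 22523 probes. Each listed gene entered with its brightest probe kept.

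All 6 groups were fitted together with limma 3.58.1 in R 4.3.3 (23 residual and 5.06 prior degrees of freedom), with two-sided p-values, Benjamini-Hochberg adjustment across these probes and a threshold of 0.05. The number of rats limits the precision. Named are all receptor probes, list genes past the threshold (or the 4 with the smallest p between extreme and minimal females), and for each receptor the 3 probes most like it and the 1 most opposed. Where a gene was named for passing a test, separated ranges of the same groups describe the same rats and add no support. Members, lists and alternatives were chosen with earlier results of these data known, and leaving out the 4 rats with high choroid plexus markers was chosen after seeing the data. The fit was tested on simulated data. Figures were drawn in Python 3.11.15.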

Additional observations from a re-analysis of the deposited data

Results flagged for a closer look

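Of 24 groups of values of the 4 receptors, 2 held a rat far from the others, and chance alone flags about 1 in 20 such groups. *Grm5* in female minimal 5 was at 6.86, with a gap of 0.36 to the next rat of its group, 72.1% of the group's range. *Grm7* in male extreme 4 was at 8.53, with a gap of 0.59 to the next, also 72.1% of the range, on the array that stood apart from the rest.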

How the results depend on the processing

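The count of receptors past the threshold was 0 in each of the 15 comparisons under every one of 39 alternatives that gave a value, 29 of them leaving out 1 rat each, so the leave-outs ranged from 0 to 0. The lowest adjusted p of a receptor under any alternative was 0.0715 (*Grm2*, both sexes, extreme against minimal, without male extreme 5). Of 2254 receptor values under alternatives, 101 had the opposite sign to their main value, and none was past the threshold under either. *Grm7* between female extreme and minimal responders was the only receptor value to move by more than the SD within groups, from 0.11 to −0.11 within set B, where 2 minimal females remained, and the cause was not tested. Normalisation from the raw signals was not run, since their columns match no label. The filter for background on all arrays left out *Grm4* and *Grm5*, which then had no value. Replicate numbers did not pair the rats: same-numbered rats had a mean correlation of deviations of −0.02 against 0.01 for others, and 8 of 70 correlated best with their own number. With the replicate block, *Grm5* between female extreme and minimal responders was at 0.27 (adjusted p = 0.0788). All probes past the threshold between extreme and minimal responders of both sexes numbered 945, 244 with the set as a block and 465 without the rats with high choroid plexus markers; between extreme and minimal females they numbered 450, 0 within set B, 186 without those rats and 697 with array weights.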
